A study of Mus musculus with 24 samples.

Results

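The genes described here are 10 genes of the p53 pathway and of apoptosis, chosen by name from 55385 genes counted in the hippocampus: Trp53, Mdm2, Cdkn1a, Ccng1, Trp53inp1, Bax, Bbc3, Pmaip1, Hrk and Bcl2l11. Their RNA was measured in 24 mice that lost Tsc1 in adult neurons or kept it. Bax, which opens the outer membrane of mitochondria, was above every control mouse on each day after the deletion, and its levels overlapped those of the controls in mice given rapamycin. Cdkn1a, which encodes the cell cycle inhibitor p21, was called as a rise on day 8 and day 13, with large differences between mice. It was also called under rapamycin, where every mouse was above the controls. The day 8 call was kept in 2 of the 8 fits that left out 1 mouse. A fit of all 24 mice lost the calls of day 8 and of rapamycin and kept that of day 13. Trp53 itself was not called in any comparison with the controls.

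The p53 protein is a transcription factor that cells keep scarce by Mdm2, the ligase that marks it for degradation, and that accumulates after DNA damage and other stress. Its target genes fall into those that hold the cell cycle, such as Cdkn1a, and those that prepare cell death. In the mitochondrial route to apoptosis, BH3-only proteins bind the protective members of the BCL2 family or activate BAX directly, and BAX then releases cytochrome c. In neurons, which do not divide, Bax, Bbc3 and Hrk are known for their part in cell death after injury or loss of trophic support, and several of these genes also respond to other factors, such as JUN, FOXO proteins, ATF4 and CHOP.

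All mice carried floxed Tsc1 (Tsc1f/f) and received tamoxifen. In Tsc1-Cre+ mice the transgene Tg(Camk2a-CreERT2) expresses a tamoxifen-dependent Cre recombinase from Camk2a regulatory sequence, so that Tsc1 is deleted in CAMK2A-expressing neurons of the adult brain and not in other cells. The Tsc1-Cre- controls lacked Cre and were taken on day 8 after the start of tamoxifen. Tsc1-Cre+ mice were taken on day 4, 6, 8 or 13, and a further group of Tsc1-Cre+ mice received rapamycin, an inhibitor of mTOR complex 1, at 10 mg/kg from day 4 and was taken on day 13. Each group held 4 adult mice, named A to D, with both sexes used. There were no controls of day 13 and no controls given rapamycin, so an effect of rapamycin alone and an effect of rapamycin on deleted neurons cannot be told apart. The animal numbers of the controls and of day 8 belong to shared series, while those of the other groups belong to different ones, so for the latter day and cohort cannot be told apart.

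The total count of a mouse lay between 28208561 and 126435936 (median 55582027), and day 13 had the widest range. Tsc1 fell from 105 ± 3.21 CPM, the count scaled to a common library size (mean ± SD, n = 4), in the controls to 63.6 ± 6.19 CPM on day 13 and 67.3 ± 1.43 CPM under rapamycin, with no overlap between either group and the controls. The whole hippocampus was homogenized, so the neurons with the deletion were measured together with all other cells, and fewer cells of a type and less RNA per cell cannot be told apart. Only RNA was measured, and neither p53 protein nor cell death is in these data. The 6 markers of neurons were present in every mouse.

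The RefSeq promoter table of GRCm38.p6 holds a window for 8 of the 10 genes, in 12 windows that run from 250 bases before to 50 bases after a start site. These windows were searched on both strands, after the expression values had been seen, for the decamer of p53, which a full p53 response element holds as a tandem pair and which reads the same on both strands. The decamer was present in 5 of the 12 windows and in 8.36% of all 32851 windows of this length. It occurs a pair of times in the first window of Cdkn1a (chr17:29090729-29091028, plus strand), which is printed whole because Cdkn1a had the largest change of the 10 genes. Capitals mark the 2 decamers, which begin 73 and 51 bases before the start site of this window, with other bases between them. The search took exact matches only. The bases that directly follow the second decamer, tgacatgttc, miss its pattern at their first letter alone, so a tandem pair with a mismatch lies here. The other window of Cdkn1a (chr17:29093519-29093818, plus strand), around another start site, holds no decamer.
Cdkn1a, window 1: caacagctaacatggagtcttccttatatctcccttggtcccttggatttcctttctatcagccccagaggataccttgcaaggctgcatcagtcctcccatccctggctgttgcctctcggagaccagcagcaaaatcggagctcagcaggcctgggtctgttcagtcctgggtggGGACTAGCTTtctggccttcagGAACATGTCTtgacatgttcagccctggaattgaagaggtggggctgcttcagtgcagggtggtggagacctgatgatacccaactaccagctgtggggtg

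The other decamers are printed with 10 bases on each side, again in capitals, to compare the 4 genes that hold them. In Trp53 (chr11:69580274-69580303, plus strand), Mdm2 (chr10:117710925-117710954, minus strand), Ccng1 (chr11:40755452-40755481, minus strand) and Bax (chr7:45467080-45467109, minus strand) the decamer begins 75, 186, 185 and 201 bases before the start site, in that order.
Trp53: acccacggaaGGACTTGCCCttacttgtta
Mdm2: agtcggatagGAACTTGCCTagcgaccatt
Ccng1: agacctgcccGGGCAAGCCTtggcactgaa
Bax: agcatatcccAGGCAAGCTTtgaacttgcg
Of the other motifs searched, TGATGNAA, which CHOP and ATF4 bind together, was found in 1 member window and in 3.97% of all windows. That window is of Hrk (chr5:118169640-118169667, plus strand), with the motif 114 bases before the start site. It is shown in capitals because Atf4 and Ddit3, which encodes CHOP, rose in these mice. A part of this motif or of these factors in the results of Hrk was not tested.
Hrk: ccgggccggaTGATGTAAccccctcccc
The AP-1 motif TGANTCA, held by 7.81% of all windows, and the cyclic AMP element TGACGTCA, held by 1.79%, had 0 matches in the 12 windows. TATAAA had a match in the window of Trp53 alone, against 13.6% of all windows, and GGGCGG, bound by SP1, in 9 windows of 6 genes, against 35.7%. Matches are letters in these windows, and binding was not measured.

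Per length, the 10 genes differed widely in the controls. As mean CPM per kilobase of exon in the 4 controls, Ccng1 was highest at 23.0, followed by Mdm2 at 9.95, Hrk at 7.12, Bax at 5.70, Trp53inp1 at 3.99, Trp53 at 2.45, Bbc3 at 1.32, Bcl2l11 at 0.680, Pmaip1 at 0.531 and Cdkn1a at 0.286. The ranges of the 4 mice did not overlap between any neighbours in this order. On day 13 Cdkn1a had moved from the last to the sixth place, with a mean of 3.77 CPM per kilobase, but its range of 0.856 to 8.24 overlapped those of its neighbours Trp53inp1 and Trp53.

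**Figure D1:**
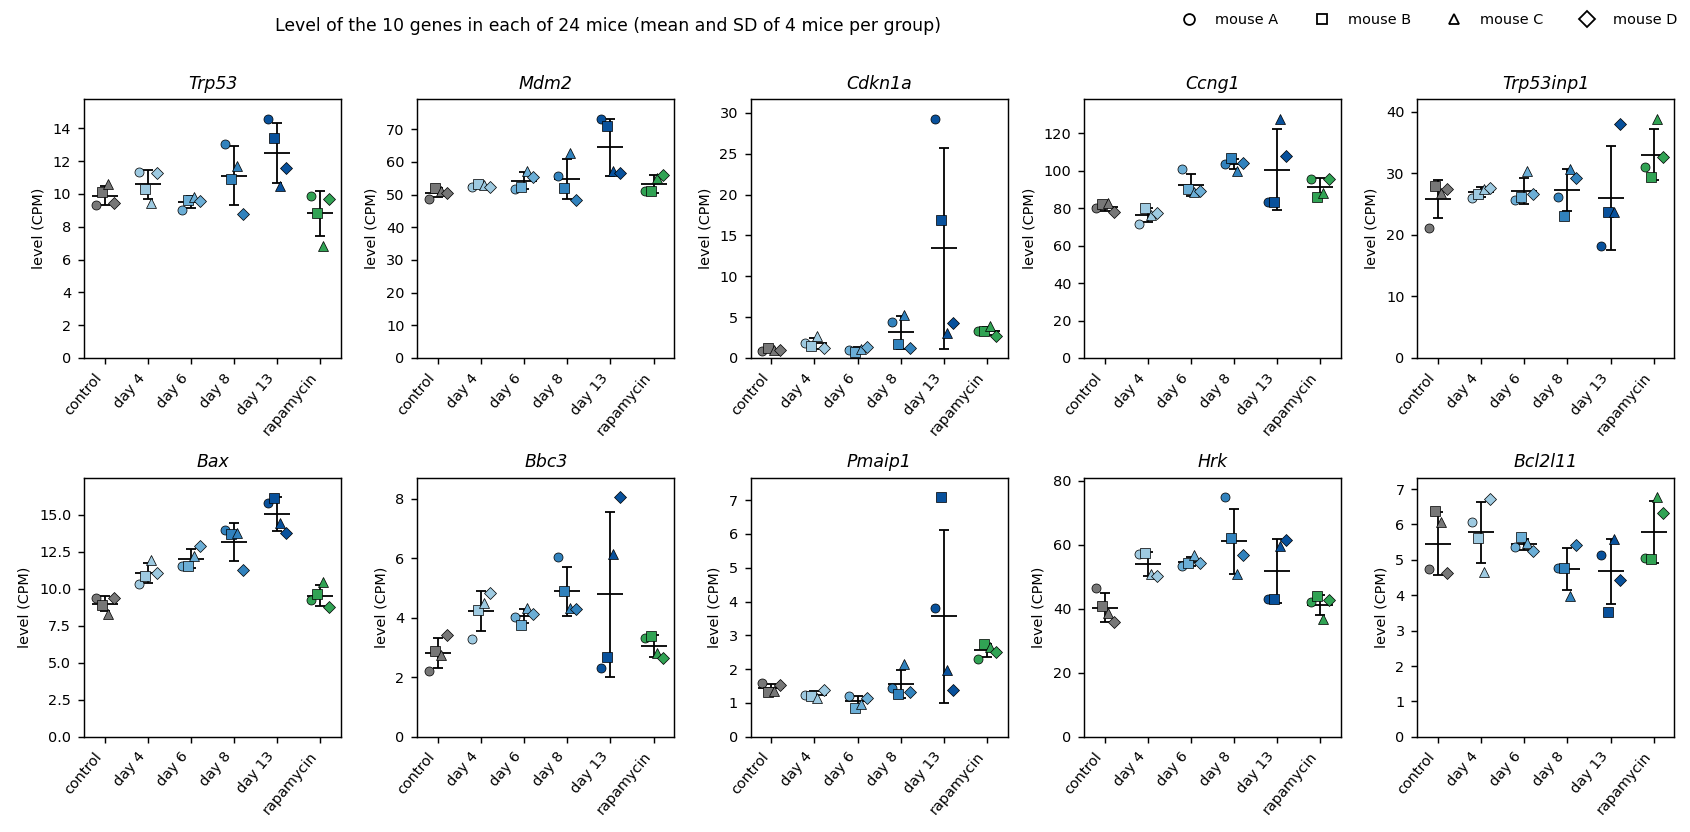
Level of each of the 10 genes in CPM (vertical axes, from 0) in the 24 mice, by group (horizontal axes); each symbol is 1 mouse, with circles for mouse A, squares for B, triangles for C and diamonds for D, and black bars show the mean and SD of 4 mice. Bax is higher on each day after the deletion, whereas Cdkn1a spreads from 3.04 to 29.3 CPM among the mice of day 13.

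In edgeR's quasi-likelihood test on the 8 mice of a comparison, a call needed an adjusted p below 0.05 and a log2 fold change of more than 0.5 in either direction. Against the controls, 0 of the 10 genes were called for day 4, 1 for day 6, 4 for day 8 and 3 for day 13, each of them a rise. Of all genes tested on day 4, 0.680% were called and 0.340% as rises. The shares were 1.32% and 0.647% for day 6, 3.99% and 2.15% for day 8, and 16.5% and 8.40% for day 13. On day 4 edgeR gave 4 members an unadjusted p under 0.05, as it did 18.4% of all genes, and DESeq2 called 1, Bbc3. The single call on day 6 was Bbc3. The calls on day 8 were Cdkn1a, Bax, Bbc3 and Hrk, and those on day 13 were Cdkn1a, Bax and Pmaip1.

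From day 4 to day 13 the 10 genes had median log2 fold changes of 0.09, 0.08, 0.25 and 0.33, whereas the medians over all genes tested were -0.0047, -0.02, -0.03 and -0.04. An F test of edgeR across the 6 groups gave an adjusted p under 0.05 for 7 of the 10 genes, as it did for 41.9% of the 27110 genes tested. The other 3 were Trp53inp1, Bbc3 and Bcl2l11, with adjusted p-values from this edgeR F test of 0.288, 0.0676 and 0.251. From one day to the next, edgeR called 0 members in each of the 3 steps, in which 0.604% (day 6 against day 4), 0.229% (day 8 against day 6) and 0.00% (day 13 against day 8) of all genes were called. In these steps 3, 3 and 2 members had an unadjusted p under 0.05, near the shares of 18.5%, 17.1% and 14.1% over all genes, and DESeq2 called 1 member, Cdkn1a, between day 4 and day 6.

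**Figure D2:**
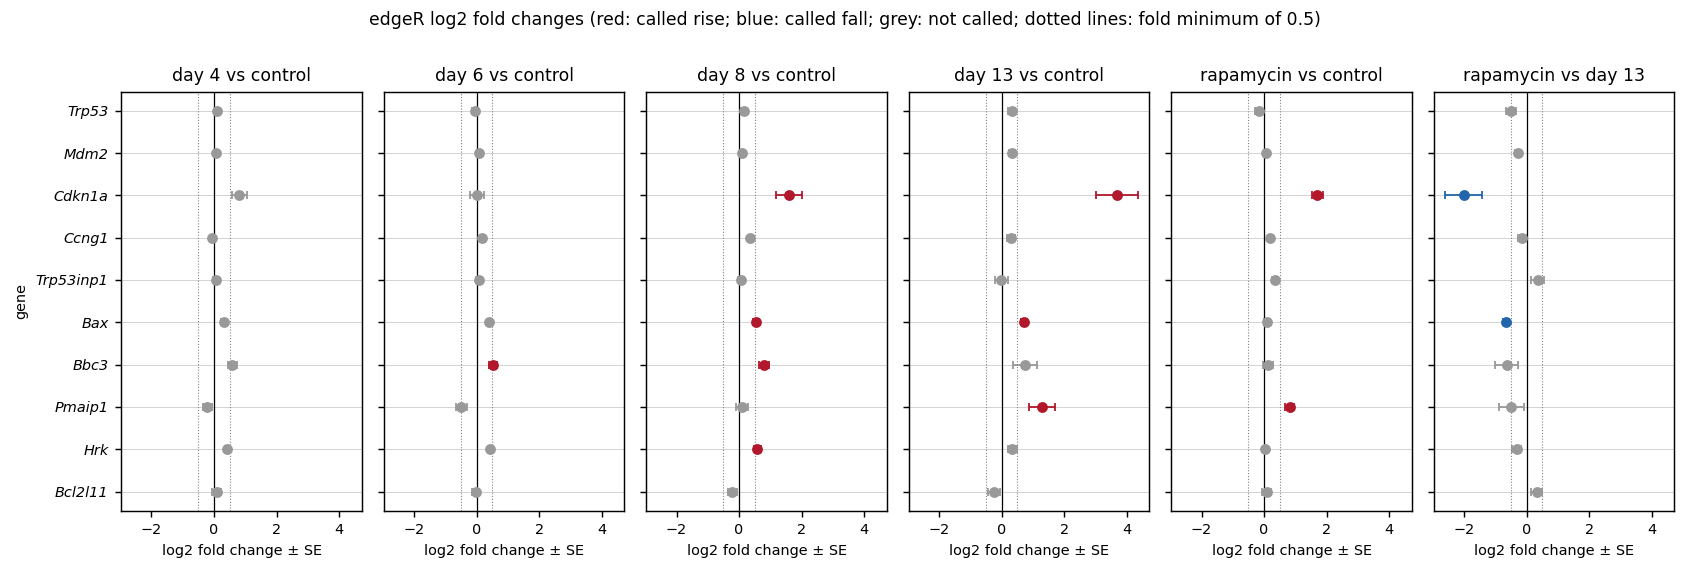
Log2 fold change of each gene with its SE (horizontal axes) from edgeR, in 6 comparisons of 4 mice with 4; red points are called rises, blue points called falls and grey points not called, and dotted lines mark the fold minimum of 0.5. The rises of Cdkn1a reach 1.603 on day 8 and 3.70 on day 13, and Bax moves from 0.30 on day 4 to 0.72 on day 13.

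Trp53, which encodes p53, had levels of 9.36, 10.1, 10.6 and 9.47 CPM in control mice A to D and of 14.6, 13.4, 10.5 and 11.6 CPM in the mice of day 13. Mice A, B and D of day 13 lay above all controls, and mouse C lay within their range. The log2 fold change on day 13 was 0.32 ± 0.12 (SE), with an adjusted p of 0.0677 in edgeR, and the groups of day 4, 6 and 8 overlapped the controls as well, with log2 fold changes between -0.07 and 0.15.

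Mdm2, the ligase and a target of p53, was at 48.6, 52.0, 51.0 and 50.5 CPM in control mice A to D and at 73.2, 70.8, 57.2 and 56.4 CPM on day 13. All mice of day 13 were above all controls, with A and B again the highest. Its log2 fold change of 0.33 ± 0.09 (SE; edgeR adjusted p = 0.0252) was under the fold minimum of 0.5, so it was not called. On day 4 its 4 mice, at 52.2 to 53.4 CPM, also lay just above the highest control, a difference of 0.06 on the log2 scale with an edgeR adjusted p of 0.409.

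Cdkn1a, whose product p21 inhibits cyclin-dependent kinases, was scarce in the controls, at 0.826, 1.27, 1.01 and 0.958 CPM in mice A to D, or 45 to 76 counts per mouse. On day 8 mice A to D had 4.404, 1.66, 5.29 and 1.17 CPM, so that A and C were far above the controls while D lay within their range. On day 13 they had 29.3, 16.9, 3.04 and 4.34 CPM, all above the controls. The highest mouse of day 13 had 9.63 times the level of the lowest. The log2 fold change was 1.603 ± 0.42 on day 8 (edgeR adjusted p = 0.0302) and 3.70 ± 0.67 on day 13 (edgeR adjusted p = 0.00459), or 13.0-fold on day 13.

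The day 13 call of Cdkn1a was kept when any 1 of the 8 mice was left out, with log2 fold changes of 2.99 to 4.06, the lowest without mouse A of day 13. The day 8 call was kept only without day 8 mouse B or D. It was lost without any 1 of the 4 controls (edgeR adjusted p from 0.0581 to 0.0829) and without day 8 mouse A or C (0.0913 and 0.0620), and without mouse C the log2 fold change was 1.23. In the edgeR fit of all 24 mice its adjusted p on day 8 was 0.0528, and over all alternative fits that kept every mouse it was 0.0109 to 0.0694. On day 4 Cdkn1a was at 1.81, 1.43, 2.66 and 1.23 CPM in mice A to D, a log2 fold change of 0.81 with an edgeR adjusted p of 0.0809, and on day 6 it was at 0.922, 0.738, 1.11 and 1.37 CPM, which overlapped the controls. It shares 273 exon bases, 7.68% of its exon length, with AC167363.2 on the opposite strand, and the strand setting of the counting is not given in the sources used here.

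Ccng1, which encodes cyclin G1 and is a target of p53, was the most abundant member. It lay at 78.2 to 82.6 CPM in the controls, at 100.8, 90.3, 88.8 and 89.2 CPM in mice A to D of day 6 and at 104, 107, 99.9 and 104 CPM in those of day 8, so that neither of these days overlapped the controls. The log2 fold changes of 0.18 ± 0.04 on day 6 and 0.35 ± 0.04 on day 8 had edgeR adjusted p-values of 0.0152 and 9.95e-04, but both were under the fold minimum. On day 13 mice A and B, at 83.3 and 83.5 CPM, lay just above the highest control, and mice C and D had 128 and 108 CPM. From day 4 to day 6 Ccng1 differed by 0.26 on the log2 scale, with an edgeR adjusted p of 0.00777.

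Trp53inp1, whose product binds p53 in the nucleus and is itself a target, ranged from 21.1 to 27.9 CPM in the controls and overlapped them on every day. Its log2 fold changes on the 4 days lay between -0.01 and 0.07. On day 13 the 4 mice had 18.2, 23.7, 23.8 and 38.0 CPM, the lowest in A and the highest in D.

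Bax, the effector of the mitochondrial route, differed little between mice of the same group. Control mice A to D had 9.38, 8.88, 8.32 and 9.37 CPM. The mice of day 4 had 10.4, 10.9, 11.95 and 11.1 CPM, and those of day 6 had 11.6, 11.5, 12.2 and 12.9 CPM. Every mouse of these days was above every control.

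On day 8 Bax was at 13.96, 13.7, 13.8 and 11.3 CPM in mice A to D and on day 13 at 15.8, 16.2, 14.5 and 13.8 CPM, again with no overlap with the controls. Log2 fold changes were 0.30 ± 0.07 on day 4 (edgeR adjusted p = 0.0365), 0.41 ± 0.07 on day 6 (0.00291), 0.54 ± 0.09 on day 8 (0.00363) and 0.72 ± 0.09 on day 13 (0.0011), or 1.65-fold on day 13. The first pair were under the fold minimum. The calls on day 8 and day 13 were kept in edgeR when any 1 of the 8 mice was left out, with log2 fold changes of 0.50 to 0.61 and 0.69 to 0.77. Neighbouring days overlapped, and the steps from one day to the next were between 0.11 and 0.18 on the log2 scale, with edgeR adjusted p-values of 0.436, 0.497 and 0.444. Bax shares 192 exon bases, 12.2% of its exon length, with Gm45808 on the same strand, and reads there could be counted for either gene.

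Bbc3 encodes PUMA, a BH3-only protein that binds all protective members of the BCL2 family. Control mice A to D had 2.20, 2.89, 2.74 and 3.41 CPM and those of day 4 had 3.28, 4.25, 4.49 and 4.84 CPM, of which mouse A lay within the range of the controls. On day 6 the levels were 4.02, 3.77, 4.33 and 4.12 CPM and on day 8 they were 6.04, 4.91, 4.33 and 4.28 CPM, all above the controls. On day 13 the mice differed: A and B had 2.31 and 2.67 CPM, as the controls did, and C and D had 6.14 and 8.04 CPM.

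The log2 fold change of Bbc3 was 0.59 ± 0.15 on day 4 (edgeR adjusted p = 0.0505), 0.52 ± 0.13 on day 6 (0.0219), 0.79 ± 0.16 on day 8 (0.00961) and 0.74 ± 0.38 on day 13 (0.178). Bbc3 was called for day 13 in the edgeR fit of all 24 mice (adjusted p = 0.0299) and in the fit with Xist as a covariate (log2 fold change 0.90, edgeR adjusted p = 0.018), against adjusted p-values of 0.103 to 0.184 in the other fits that kept all mice. Without day 13 mouse D its log2 fold change on that day was 0.36 (edgeR adjusted p = 0.446). Its call for day 8 was kept in edgeR when any 1 mouse was left out, with log2 fold changes of 0.67 to 0.89, and was lost in the edgeR fit of all 24 mice, with an adjusted p of 0.0506. The day 6 call was lost without control mouse A or C or day 6 mouse C or D, with log2 fold changes of 0.42, 0.51, 0.49 and 0.51 and edgeR adjusted p-values of 0.0378, 0.0510, 0.0706 and 0.0554. In the edgeR fit of all 24 mice the day 6 call was also lost (adjusted p = 0.414, against 0.00282 to 0.0446 in the other fits that kept all mice).

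Pmaip1 encodes NOXA, a BH3-only protein that binds MCL1, and was at 1.58, 1.34, 1.35 and 1.53 CPM in control mice A to D. On day 6 its mice, at 1.22, 0.848, 0.973 and 1.14 CPM, lay below all controls, a log2 fold change of -0.48 ± 0.17 with an edgeR adjusted p of 0.0824. On day 13 mice A to D had 3.81, 7.08, 1.99 and 1.40 CPM, so that A, B and C were above the controls and D was within their range. The log2 fold change on day 13 was 1.30 ± 0.42 (edgeR adjusted p = 0.0476). This call was kept only without day 13 mouse C or D; without mouse B it was 0.74 (edgeR adjusted p = 0.121), without mouse A 1.28 (0.0870), and without any 1 control the edgeR adjusted p was 0.0942 to 0.113. With Xist added to the model as a covariate, since both sexes were used, its log2 fold change on day 13 was 0.74 (edgeR adjusted p = 0.143), and Cdkn1a had 2.65 (0.0101).

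Hrk encodes Harakiri, a BH3-only protein found mainly in the nervous system. Control mice A to D had 46.4, 40.8, 38.7 and 35.8 CPM. The mice of day 4 had 57.0, 57.3, 51.0 and 50.4 CPM, those of day 6 had 53.4, 54.5, 56.8 and 54.4 CPM, and those of day 8 had 74.8, 62.1, 51.0 and 56.8 CPM. Every mouse of these 3 days was above every control. On day 13 mice A and B, at 43.2 CPM each, lay within the range of the controls, and C and D had 59.6 and 61.6 CPM.

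The log2 fold change of Hrk was 0.42 ± 0.07 on day 4 (edgeR adjusted p = 0.00953), 0.43 ± 0.06 on day 6 (0.0011), 0.58 ± 0.11 on day 8 (0.00735) and 0.34 ± 0.14 on day 13 (0.105), so that it passed the fold minimum on day 8 alone. Without day 8 mouse A the log2 fold change on day 8 was 0.48 and no longer passed it. Bcl2l11 encodes BIM, the BH3-only protein known for the death of neurons without trophic support, and lay at 4.64 to 6.37 CPM in the controls. It overlapped them on every day, with log2 fold changes from -0.25 ± 0.18 on day 13 to 0.08 ± 0.14 on day 4.

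Counted by overlap alone, Mdm2, Bax and Hrk had all 4 mice of day 4 above all controls, or 3 members, as did 5.65% of 27110 genes (11.1% had no overlap in either direction). For day 6 these were 4 members, Ccng1, Bax, Bbc3 and Hrk, against 9.21% of genes, and 1 member below the controls, Pmaip1, against 5.88% (15.1% in either direction). The same 4 genes were above the controls in all mice of day 8, against 11.6% of genes (19.3% in either direction). In the mice of day 13 they were Mdm2, Cdkn1a, Ccng1 and Bax, or 4 members, against 16.0% of genes (29.0% in either direction). Bax was the member above the controls on all 4 days.

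The mice of day 13 differed from each other in opposite directions for different members. Mice A and B had the highest levels of Trp53, Mdm2, Cdkn1a, Bax and Pmaip1 and the lowest of Ccng1, Bbc3 and Hrk, and mice C and D the reverse. For Bbc3 the highest mouse, D, had 3.49 times the level of the lowest, A. For Pmaip1 the highest mouse, B, had 5.08 times the level of the lowest, D. Of the 10 members, 6 had their widest ratio of highest to lowest mouse on day 13 and the other 4 on day 8. In every mouse of day 13, 6 to 8 of the 10 members were above all controls, but not the same members, and of 27110 genes 35.2% (A), 37.1% (B), 32.5% (C) and 32.4% (D) were. These mice also differed in depth, from 38423852 counts in mouse C to 126435936 in mouse B. With all mice thinned to the smallest library the calls of Cdkn1a, Bax and Pmaip1 on day 13 were kept. Log2 fold changes were then 3.56 for Cdkn1a and 1.33 for Pmaip1. Both sexes were used. With Xist as a covariate the log2 fold changes of day 13 were 2.65 for Cdkn1a, 0.74 for Pmaip1 and 0.90 for Bbc3, against 3.70, 1.30 and 0.74 without it. A part of sex in the differences between these mice was not tested.

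**Figure D3:**
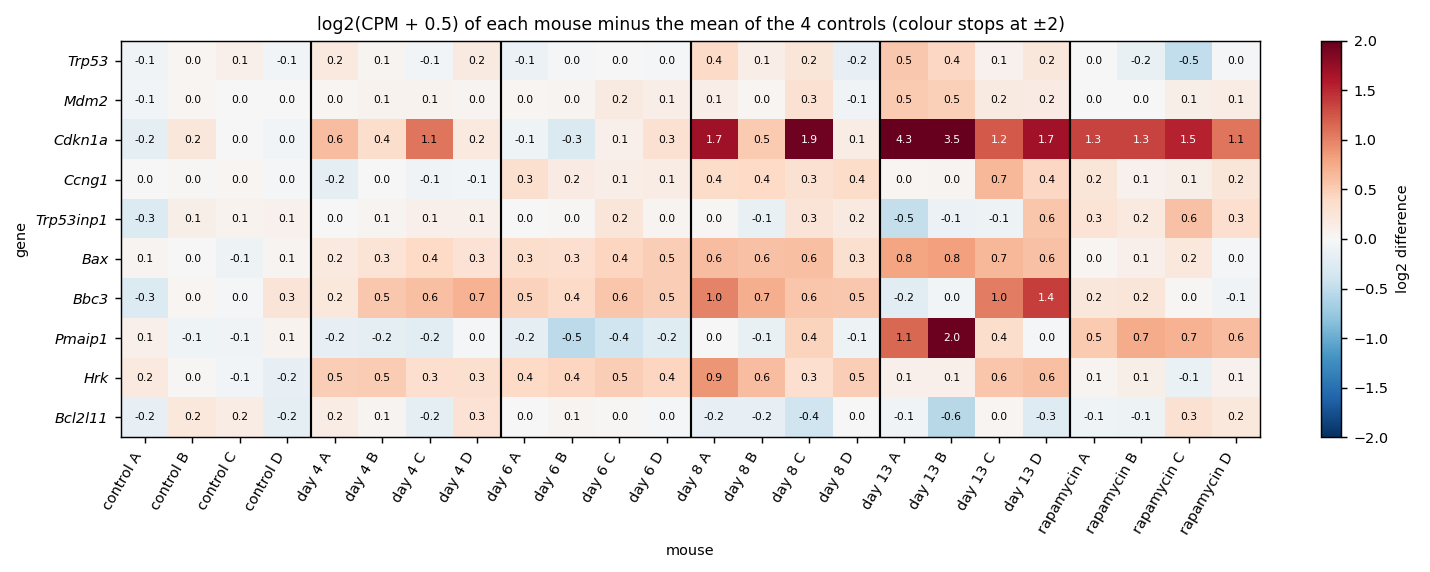
Difference of each mouse (horizontal axis) from the mean of the 4 controls for each gene (vertical axis), in log2(CPM + 0.5), given as a number and as a colour that stops at ±2. On day 13 mice A and B have the highest values of Cdkn1a and Pmaip1 and values of Bbc3 and Hrk near 0, and mice C and D have higher values of Bbc3 and Hrk.

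Markers of other cell types moved with some of these differences. The summed level of 6 astrocyte markers was 1106 to 1150 CPM in the controls, 1522, 2141, 1228 and 1285 CPM in mice A to D of day 13 and 1403, 884, 1732 and 941 CPM in those of day 8, so that in both groups the pair of mice with the highest Cdkn1a also had the highest sums. Of these 6 markers, 1 (Gfap) rose and 1 (Gja1) fell on day 13, with a median log2 fold change of -0.02. On day 8, 0 of them rose and 1 fell, with a median of -0.15, so most of the list did not rise on either day. The summed level of 6 markers of dividing cells was 16.3 to 20.3 CPM in the controls and 45.6, 24.6, 44.4 and 26.1 CPM in mice A to D of day 8, again highest in A and C. Of these, 5 rose on day 8 and 4 on day 13. On day 13 their sum was 19.1 CPM in mouse A, which had the highest Cdkn1a, and 39.0 CPM in mouse B. No marker of either list was at 0 in all mice of a group. Their part in the results of Cdkn1a was not tested. The summed level of 6 markers of circulating leukocytes was 7.49 to 8.86 CPM in the controls. In mice A to D of day 13 it was 11.2, 16.2, 8.66 and 7.46 CPM, the order that Pmaip1 had. Of these markers, 1 was tested on day 13 and 0 rose. A part of leukocytes in the results of Pmaip1 was not tested.

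Neuron markers summed to 5027 to 5803 CPM in the controls, 5053 to 5750 CPM on day 8 and 5442 to 5866 CPM on day 13. Microglia markers summed to 221 to 266 CPM in the controls and 200 to 272 CPM on day 13, endothelial markers to 189 to 212 and 193 to 222 CPM, and oligodendrocyte markers to 2932 to 4557 and 2299 to 4609 CPM. On day 8 oligodendrocyte markers summed to 2753 to 3167 CPM, and 2 of 6 fell. Their part in the results of day 8 was not tested. On day 6 astrocyte markers summed to 929 to 966, microglia markers to 202 to 218 and endothelial markers to 173 to 184 CPM. These sums lay below all controls, whereas markers of dividing cells, at 21.7 to 24.7 CPM, lay above them. On day 4 the sums of these lists overlapped the controls. No marker of these lists was called on either day, and their part in the results of these days was not tested. Choroid plexus markers differed widely within groups, from 60.6 to 1683 CPM among controls, the highest in mouse B. With control mouse B left out, the calls of Bax, Bbc3 and Hrk on day 8 and of Cdkn1a and Bax on day 13 were kept. Those of Cdkn1a on day 8 and Pmaip1 on day 13 were lost. The same calls were kept and lost with any other control left out instead. These fits therefore cannot show a part of choroid plexus in the calls, which was not tested.

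In mice given rapamycin, 2 of the 10 genes were called against the controls, both as rises, where 1.41% of all genes were called and 0.372% as rises. Cdkn1a was at 3.33, 3.33, 3.87 and 2.68 CPM in rapamycin mice A to D, all above the controls and much closer together than the mice of day 13. Its log2 fold change was 1.70 ± 0.17 (edgeR adjusted p = 3.81e-04), or 3.24-fold. Pmaip1 was at 2.29, 2.76, 2.66 and 2.50 CPM, also above all controls, with a log2 fold change of 0.82 ± 0.14 (edgeR adjusted p = 0.0068). Both calls were kept when any 1 of the 8 mice was left out, with log2 fold changes of 1.604 to 1.82 and 0.78 to 0.87.

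In an edgeR fit of all 24 mice, which shares the spread of day 13 with every group, both calls were lost, with adjusted p-values of 0.147 for Cdkn1a and 0.244 for Pmaip1. Over the other alternatives, each mouse left out in turn included, the adjusted p was at most 0.00249 for Cdkn1a and 0.0299 for Pmaip1. In these mice astrocyte markers summed to 877 to 928 CPM, markers of dividing cells to 11.5 to 14.8 CPM, microglia markers to 166 to 187 CPM and endothelial markers to 166 to 177 CPM, all below the controls. Of 6 markers each (5 tested for dividing cells), 3 of astrocytes, 1 of dividing cells, 2 of microglia, 3 of oligodendrocytes and 1 of endothelial cells fell, and 0 rose. Markers of circulating leukocytes summed to 5.24 to 7.15 CPM, also below the controls, and 1 of the 2 tested fell. Their part in the results of Cdkn1a and Pmaip1 under rapamycin was not tested. Ccng1, at 85.9 to 95.8 CPM, and Trp53inp1, at 29.4 to 38.9 CPM, also lay above all controls, with edgeR adjusted p-values of 0.0645 and 0.0685. In all, 4 of 10 members lay above the controls without overlap, as did 5.39% of all genes (11.3% in either direction). Bax, at 9.27, 9.64, 10.4 and 8.75 CPM, Bbc3, at 2.64 to 3.39 CPM, and Hrk, at 36.8 to 43.9 CPM, overlapped the controls, with log2 fold changes of 0.09, 0.12 and 0.03.

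Set against the untreated mice of day 13, 2 members were called in the rapamycin mice, both as falls, where 21.1% of all genes were called and 11.2% as falls. Bax fell by 0.65 on the log2 scale (edgeR adjusted p = 0.00182), with no overlap between the groups, and the call was kept when any 1 mouse was left out. Cdkn1a fell by 2.01 (SE 0.60; edgeR adjusted p = 0.0296), although day 13 mouse C, at 3.04 CPM, lay within the range of the rapamycin mice. The call of Cdkn1a was kept only without day 13 mouse C or D. Without mouse A of day 13 the log2 difference was -1.31 (edgeR adjusted p = 0.0782), without mouse B it was -1.91 (0.0596), and without any 1 rapamycin mouse the edgeR adjusted p was 0.0622 to 0.0864. With Xist in the model it was -1.48 (edgeR adjusted p = 0.0518).

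Trp53 lay just on the fold minimum in the same comparison, with a log2 fold change of -0.50 ± 0.15 (edgeR adjusted p = 0.0297), and was not called. It was called in 6 of 9 alternative fits that kept all mice, DESeq2 (-0.52, adjusted p = 0.0077) and edgeR on all 24 mice (-0.51, 0.00143) among them, and the adjusted p of all 9 was 0.00143 to 0.0358. With 1 mouse left out at a time, Trp53 was not called in 5 of 8 edgeR fits. In these 8 fits its log2 fold change was -0.58 to -0.39 and its edgeR adjusted p 0.0180 to 0.08005. Pmaip1, at -0.49 ± 0.41, and Bbc3, at -0.63 ± 0.37, had edgeR adjusted p-values of 0.386 and 0.221. The 2 comparisons of the rapamycin mice share those mice, and those with the controls share the controls, so their calls are not independent of each other.

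The order of the groups differed between members. By mean CPM, Bax was ordered day 13 (15.1), day 8 (13.2), day 6 (12.04), day 4 (11.1), rapamycin (9.53) and control (8.99), with overlap between every pair of neighbours. Cdkn1a was highest on day 13 (13.4), followed by rapamycin (3.30), day 8 (3.13), day 4 (1.78), day 6 (1.04) and control (1.01), also with overlap between neighbours. Pmaip1 had day 13 (3.57) and rapamycin (2.55) first, and the rapamycin mice did not overlap the next group, day 8 (1.55). Hrk was highest on day 8 (61.2), then on day 6 (54.8), day 4 (53.9) and day 13 (51.9), whereas rapamycin (41.3) and control (40.4) were lowest.

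Other genes that p53 is known to induce were taken from a list of 27, all of them tested. None fell in any comparison with the controls. edgeR called 0 of them for day 4, 3 rises for day 6, 5 for day 8, 8 for day 13 and 1 under rapamycin, where 0.340%, 0.647%, 2.15%, 8.40% and 0.372% of all genes were called as rises. Their median log2 fold change was 0.07, 0.04, 0.20, 0.43 and -0.04 in this order. On day 13 the largest rises were those of Sesn2, an inhibitor of mTOR complex 1 that ATF4 also induces, at 2.52 ± 0.18, Gadd45a, a growth arrest gene, at 2.00 ± 0.35, and the kinase gene Plk2 at 1.22 ± 0.17, with edgeR adjusted p-values of 1.25e-04, 0.004 and 0.00166. Sesn2 (0.97 ± 0.07), Tigar (0.63 ± 0.07), which lowers glycolysis, and Ddit4 (0.55 ± 0.09), another inhibitor of mTOR complex 1, were the 3 rises of day 6. On day 8 these 3 were called again, with Plk2 (0.51 ± 0.14) and Aen (0.51 ± 0.08), a nuclease gene. Under rapamycin the rise was that of Fas, a death receptor, at 0.81 ± 0.16. Against day 13, 8 of the 27 fell in the rapamycin mice and 0 rose, where 11.2% of all genes were called as falls.

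Among 18 regulators and relatives of p53, of which 17 were tested, Trp73 fell on day 8 (-1.15 ± 0.19) and day 13 (-1.20 ± 0.26), and Trp63 fell on day 13 (-1.05 ± 0.34). Both encode relatives of p53. The rise of this list was that of Ppp1r13l, an inhibitor of p53 also called iASPP, on day 13 (0.88 ± 0.23). Mdm4, the partner of Mdm2, had a log2 fold change of 0.00 ± 0.07 on day 13. For day 4, day 6 and rapamycin edgeR called 0 of the 17. It called 1 fall for day 8, and 1 rise and 2 falls for day 13, where 3.99% and 16.5% of all genes were called. The median log2 fold changes of the list on these days were -0.01 and -0.04, near those of all genes (-0.03 and -0.04).

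Of the other protective members of the BCL2 family, 7 of 8 were tested on day 13 and 5 in the other comparisons with the controls, and Mcl1 rose on day 13 (1.18 ± 0.24). Bcl2 and Bcl2l1, the best known of them, had log2 fold changes of -0.02 ± 0.12 and 0.22 ± 0.09 on that day, with edgeR adjusted p-values of 0.933 and 0.0977. Among 9 other effectors and BH3-only genes, Bid, which links death receptors to mitochondria, rose on day 8 (0.66 ± 0.13) and day 13 (0.80 ± 0.18). Of all genes, 2.15% were called as rises on day 8 and 8.40% on day 13. Bid shares 628 exon bases with Bcl2l13 on the opposite strand.

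The list of 24 caspases and other death genes, all tested, had 1 rise on day 6, Endog (0.75 ± 0.17), a mitochondrial nuclease, and 1 on day 8, Birc5 (0.93 ± 0.27), known from dividing cells. It had 5 rises on day 13, when 8.40% of all genes were called as rises and 16.5% in either direction, and 1 fall under rapamycin, Tnfrsf1a (-0.54 ± 0.14). On day 6 and day 8, 0.647% and 2.15% of all genes were called as rises, and under rapamycin 1.41% were called in either direction. The largest rises of day 13 were those of Tnfrsf1a, a receptor of tumour necrosis factor, at 1.55 ± 0.43, Cycs, which encodes cytochrome c, at 0.78 ± 0.06, and Parp1, a sensor of DNA breaks, at 0.69 ± 0.10, beside Endog and Birc5. Casp9, the initiator caspase of the mitochondrial route, had a log2 fold change of -0.20 ± 0.14 on day 13, with an edgeR adjusted p of 0.325. The median of this list on day 13 was 0.20.

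Of 12 transcription factors other than p53 that are known to act on these genes, 2 rose on day 6 (Jun and Atf4), 3 on day 8 (Jun, Atf4 and Ddit3), and 8 rose and 2 fell on day 13, with 0 called on day 4 and under rapamycin. The largest rises of day 13 were Atf3 at 4.89 ± 0.76, Fos at 3.89 ± 0.93 and Ddit3 at 2.45 ± 0.21, and the falls were Foxo1 at -1.02 ± 0.15 and Foxo4 at -0.54 ± 0.13. Their median log2 fold change on day 13 was 1.24, against -0.04 over all genes. Of all genes, 0.647%, 2.15% and 8.40% were called as rises on day 6, 8 and 13, and 16.5% in either direction on day 13. Against day 13, 8 of the 12 fell in the rapamycin mice and 1, Foxo1, rose, where 11.2% of all genes were called as falls and 21.1% in either direction.

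**Figure D4:**
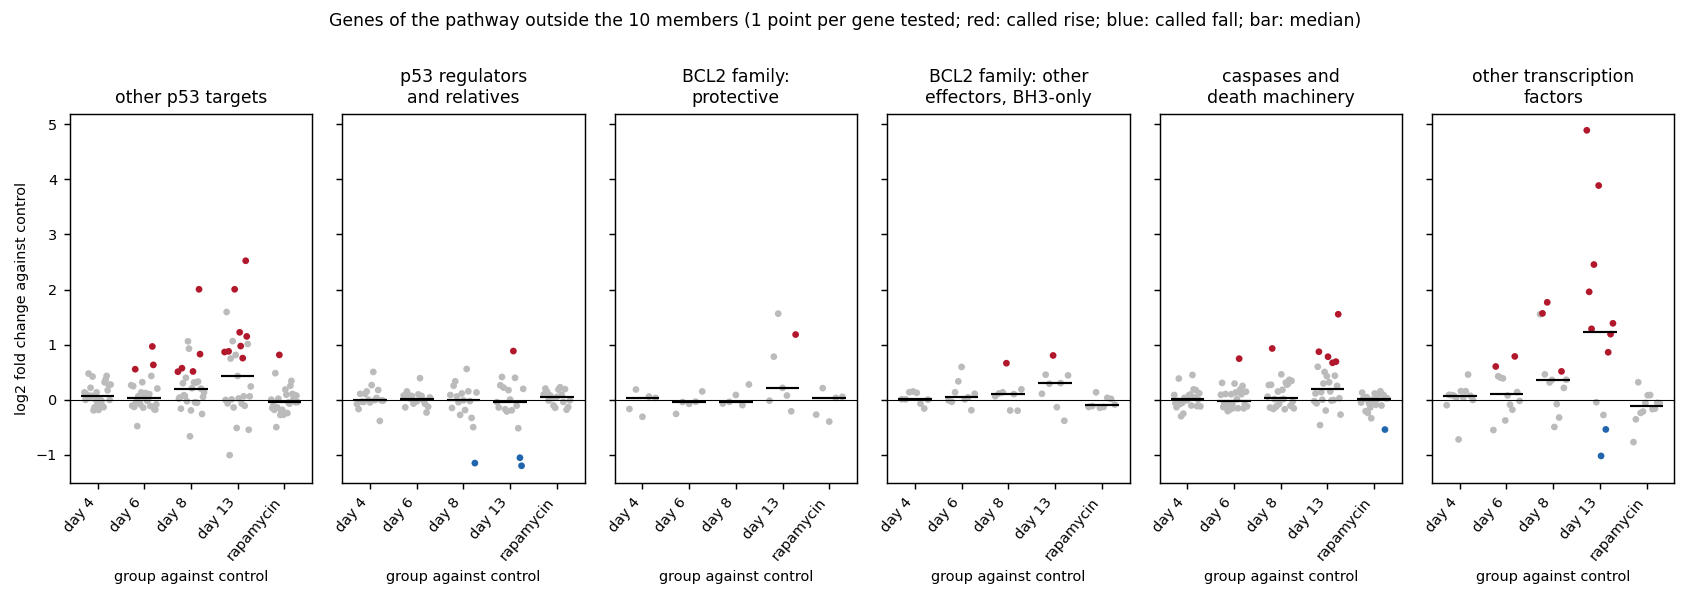
Log2 fold change against control (vertical axis) of the genes of 6 lists, with 1 point per gene tested in each of 5 comparisons (horizontal axes); red points are called rises, blue points called falls, grey points not called, and bars are medians. On day 13 the median is 0.43 for other p53 targets and 1.24 for other transcription factors, and under rapamycin it is -0.04 for other p53 targets.

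The genes with the pattern most like each called member were sought among 13910 genes by the root mean square difference, over the 24 mice, of log2(CPM + 0.5) relative to the control mean. Closest to Cdkn1a were Maff (0.39), Rhoj (0.62) and Tnfrsf12a (0.64), where the median over all genes was 1.44. Closest to Bax were Rraga (0.10), Clcn7 (0.10) and 2410131K14Rik (0.11), with a median of 0.43. For Bbc3 the second closest of all genes was Hrk, another of the 10, at 0.28, after Rab40b at 0.26. Pmaip1 was followed most closely by Aff1 (0.28), Lonrf3 (0.31) and Pglyrp1 (0.31), and Hrk by Sept3, Grik5 and Mcoln1 (0.17 each).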

How the data were processed

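Hippocampal RNA of 24 mice was sequenced as stranded, ribosomal RNA-depleted total RNA. Per the labels, the authors used cutadapt 1.16.5, STAR 2.7.2b and featureCounts 1.6.4 with genome build mm10, and deposited whole-number read counts per GENCODE gene without normalization. The strand setting of counting is not given in the sources used here. Names and exon lengths came from GENCODE M21, an earlier release than that of the authors, in which 55144 of 55385 identifiers were found. Coordinates are those of GRCm38.

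Groups came from sample titles. Each comparison was fitted on its 8 mice over all genes that passed filterByExpr, by edgeR 4.0.16 (quasi-likelihood, TMM, Benjamini-Hochberg) in R 4.3.3, and the 10 genes were read from that table. CPM used TMM factors over 24 mice. The F test covered 27110 genes. The ± values are SDs of levels and SEs of log2 fold changes. Each sample is a separate mouse, and p-values set the difference between groups against the spread between these mice. The 10 genes and all lists were chosen with earlier results of these data known, so their counts are not independent evidence. All 10 were described, and from other lists up to 3 called rises and 3 called falls of largest change per comparison with mean CPM of at least 1; Mdm4, Bcl2, Bcl2l1, Casp9, Birc5, Aen, Plk2 (day 8) and Endog (day 13) were named after their values were seen. Scripts were tested on simulated data. The alternatives were DESeq2 1.42.0, edgeR on all mice, DESeq2 size factors, other filters, no fold minimum, the replicate letter as a block, animal-number series as a block for day 8, Xist as a covariate, and each mouse left out; thinning to the smallest library was added after the data were seen. Results for some genes of the lists are not reported here.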

Additional observations from a re-analysis of the deposited data

Results flagged for a closer look

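In 60 groups of 4 mice (10 genes in 6 groups), the highest or lowest mouse was compared with the others by Dixon's ratio at its critical value. Chance flags about 1 group in 20, and 3 of 60 were flagged. Ccng1 was at 100.8 CPM in mouse A of day 6, above the other mice of that day. Trp53inp1 was at 21.1 CPM in control mouse A, below the other controls. Bax was at 11.3 CPM in mouse D of day 8, below the other mice of that day, and still above every control.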

How the results depend on the processing

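Of 90 pairs of a gene and a comparison, 12 were called, 17 were called only under an alternative and 61 under none, and 0 of the 12 changed direction under any alternative run. The count of members called moved by over 1.5 times as follows. On day 4 (0 called) it was 1 with DESeq2, 2 with no filter on low counts, 1 with a filter of a count above 10 in at least 50% of mice, 2 with no fold minimum, 1 with the replicate block and 1 with Xist as a covariate. On day 6 (1 called) it was 4 with no fold minimum. In edgeR on all 24 mice it was 0 on day 6, 2 on day 8 (4 called), 0 under rapamycin (2 called) and 2, Cdkn1a and Pmaip1, for day 13 against day 8 (0 called). For rapamycin against day 13 (2 called) the replicate block and Xist each gave 1. For day 6 against day 4 (0 called), DESeq2, no filter and no fold minimum each gave 1, and for day 8 against day 6 (0 called) no filter gave 1. The F test gave 7 genes, or 8 with DESeq2. Leaving out 1 mouse at a time, the count was 0 to 1 on day 4, 0 to 1 on day 6, 2 to 4 on day 8, 2 to 3 on day 13, 2 under rapamycin, 1 to 4 for rapamycin against day 13, 0 to 1 for day 6 against day 4, 0 to 1 for day 8 against day 6 and 0 for day 13 against day 8, and the F test gave 6 to 9 genes. The cause of these moves was not tested.

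The letters A to D name different animals, and mice of the same letter did not deviate together: their correlations lay between -0.39 and 0.21 over the comparisons, and 0 to 3 of 8 mice were closest to their own letter. With the replicate block, day 8 had 3 calls (without Cdkn1a, 1.39, edgeR adjusted p = 0.0694) and day 13 had 2 (without Pmaip1, 1.04, 0.0951), and day 6 kept its 1. Genes with few counts, such as Cdkn1a and Pmaip1 in the controls with 45 to 86 counts per mouse, limit the size of difference that this depth can show.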
